A study of Labrus bergylta with 25 samples.

Results

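The 200 steadiest genes of the anterior gut were those whose values varied least over all treatments in the ballan wrasse (Labrus bergylta), a fish without a stomach. They were chosen by their measured spread. Among the 20208 genes of the table, 13558 had a mean value of at least 50 over the 25 libraries. The 100 genes with the highest mean were then left out, and the 200 of the remaining 13458 with the lowest standard deviation (SD) of log2(value + 1) over the 25 libraries were taken. Here these 13458 are called the eligible genes. The deposited values are read counts that the authors had divided by a size factor per library, so a steady gene is one that kept its place relative to the other genes, not one with a fixed number of molecules per cell.

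Intestines of female fish, which the paper describes as juveniles, were kept in Ringer's solution, a physiological salt solution, for 1 h. RNA of the bulbous (Segment 1, at the front) was then sequenced. Of the intestines, 6 held a bolus of hydrolyzed protein (casein), 6 one of hydrolyzed lipid and 7 one of cellulose. Each bolus was 0.1% of body weight, and 6 intestines were left empty. Each library came from 1 RNA sample and has its own number, by which it is named here. Depth is counted here as the reads on the 20208 listed genes, not as all reads sequenced. It was 10160088 in cellulose library 31 and 31586869 in protein library 33, the extremes of the 25. Of the 20208 genes, 355 or fewer had no read in 22 libraries, whereas cellulose library 27, empty library 19 and empty library 30 lacked them for 659, 803 and 1003. The isolated gut contains epithelium, smooth muscle, nerves and blood cells together, so fewer cells of a type and less RNA per cell cannot be told apart. The labelled tissue could not be checked against marker genes, because 0 of the 20208 identifiers matched the RefSeq gene table of the species.

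Measurements of gene expression are relative, and a method such as quantitative PCR divides the signal of the gene of interest by that of reference genes. A good reference gene keeps an even transcript level between the samples compared and is not touched by the treatment. Genes of basic cell upkeep, such as those for ribosomal proteins, elongation factors, actin or glycolytic enzymes, are the usual choice, although no gene is known to be steady in every tissue and treatment. For this tissue the paper reports ribosomal protein genes as enriched among those it found higher with protein or lipid than with cellulose. The members are given by identifier, and whether any of the usual reference genes is among them was not tested, since the identifiers are paired with no name in the sources used here.

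The members were expressed at a middle to high level. Their mean value ranged from 205 to 4633 with a median of 874, against a median of 296 in the other 13258 eligible genes. No eligible gene with a mean under 200 was a member, nor was any of the 200 eligible genes with a mean of 6400 or more. Counting of reads alone would give a median SD of 0.173 on the log2 scale at means of 50 to 100, and 0.123 at 100 to 200. The highest SD of a member was 0.130, so the rule could hardly take genes at these low levels, however steady. The lower end of the members' level is thus largely built in. Between 200 and 400 the members made up 0.467% of the genes (13 of 2782), between 400 and 800 they made up 2.81% (70 of 2493), and between 800 and 1600 their share was 4.71% (81 of 1719). It was 3.44% (29 of 843) between 1600 and 3200 and 1.93% (7 of 362) between 3200 and 6400. The median spread of all eligible genes ran the other way and was lowest where members were most common. Its SD was 0.448 on the log2 scale at means of 50 to 100, 0.254 at 800 to 1600 and 0.332 above 6400. Together the members took from 156983 to 488930 reads per library, and from 1.30% to 1.73% of the summed values.

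**Figure D1:**
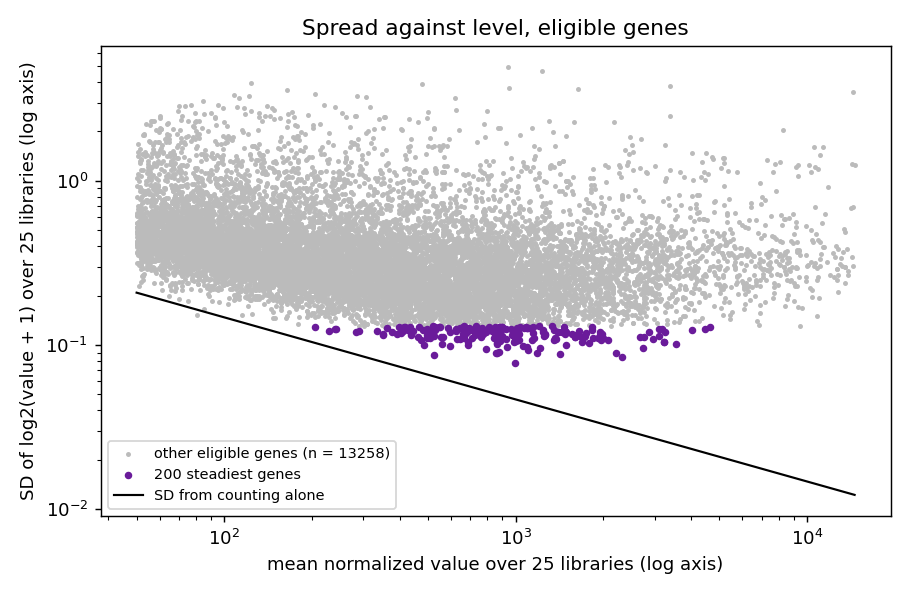
SD of log2(value + 1) over 25 libraries against the mean normalized value, both on log axes, for the 200 steadiest genes (purple) and the other 13258 eligible genes (grey), with the SD that counting of reads alone would give (black line). The members form the lower edge of the cloud between means of 205 and 4633, and all lie above the line.

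Over the 25 libraries the SD of the members ranged from 0.0775 to 0.130 (median 0.119), whereas the median of the other eligible genes was 0.326. These are the values by which the members were chosen and are given without a test. On the linear scale the coefficient of variation of a member was between 5.43% and 9.59%, with a median of 8.19%. The library with the highest value of a member exceeded that with the lowest by a median of 1.38-fold and by at most 1.62-fold. Among the members, 189 stayed under 1.5-fold, as did 309 of the other eligible genes. In 149 members all 25 libraries lay within 20% of the gene's mean, and in 105 members at least 20 libraries lay within 10% of it. The threshold did not fall in a gap. The last genes inside, LABE_00019503-RA and LABE_00059921-RA, had SDs of 0.129955 and 0.129986, and the first outside, LABE_00051462-RA and LABE_00089034-RA, had 0.130074 and 0.130138.

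Part of this spread was due to the counting of reads. At the depth of the libraries, counting alone would give the members an SD of 0.0217 to 0.103 (median 0.0499) on the log2 scale, and their observed SD was 1.26 to 5.95 times as large (median 2.31). In the other eligible genes the median was 3.77 times. The SD of 9 members was less than 1.5 times that of counting, that of 147 members was more than 2 times, and that of 12 members more than 4 times. Noise from the preparation of the libraries is not covered by this estimate and was not measured.

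LABE_00012787-RA had the lowest spread of all, with a mean of 994 and an SD of 0.0775. Its lowest, median and highest values were 912, 964 and 1060.0 with protein and 949.9, 976 and 1069.6 with lipid. With cellulose they were 919, 1003 and 1019, and in empty intestines 964, 1066 and 1092. The 3 highest of the 25 values came from empty libraries 24, 30 and 19, but the groups overlapped. Groups accounted for 33.8% of its variance, and its log2 difference from empty intestines was -0.11 (standard error 0.07) with protein, -0.09 (standard error 0.07) with lipid and -0.10 (standard error 0.06) with cellulose.

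LABE_00043687-RA, second in rank, was expressed at a higher level, with a mean of 2316. Its lowest, median and highest values were 2199.6, 2294 and 2636 with protein, 2155, 2296 and 2406 with lipid, 2120.3, 2234 and 2513 with cellulose, and 2149, 2337 and 2527 in empty intestines. The group means lay within 0.0337 of each other on the log2 scale, and groups accounted for 2.98% of the variance. In LABE_00027601-RA (mean 524) the values spanned a wider range with lipid and cellulose than with protein or in empty intestines. This difference in spread was not tested. Counting alone would give this gene an SD of 0.0644 on the log2 scale. The SD was below that with protein (0.0476) and in empty intestines (0.0471). Its values were from 504 to 549.5 with protein, 487 to 599 with lipid, 465 to 610.4 with cellulose and 500.1 to 546 in empty intestines, with medians of 532, 506, 528 and 507. Its SD was 1.36 times that of counting, the lowest ratio among the 6 steadiest genes.

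LABE_00044750-RA (mean 1419) had the most even group means of all 200 members, with a range of 0.0113 between the highest and the lowest group on the log2 scale. Its values ran from 1312 to 1526 (median 1432) with protein, 1291 to 1544 (median 1425) with lipid, 1267.5 to 1625 (median 1426) with cellulose and 1325 to 1503 (median 1414) in empty intestines. The fifth gene, LABE_00002728-RA (mean 865), had values of 812 to 955 (median 824) with protein, 823 to 926 (median 864) with lipid, 788 to 915 (median 898) with cellulose and 815 to 979 (median 853) in empty intestines. Protein library 32 stood above the other protein libraries in this gene, the next of which had 845. LABE_00019633-RA (mean 859) ran from 828 to 912 (median 888) with protein, 780.3 to 948 (median 847) with lipid, 755 to 967 (median 905) with cellulose and 808 to 854 (median 818) in empty intestines. Here the empty libraries kept to the lower part of the range, and the lowest and the highest library were cellulose libraries 31 and 27.

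**Figure D2:**
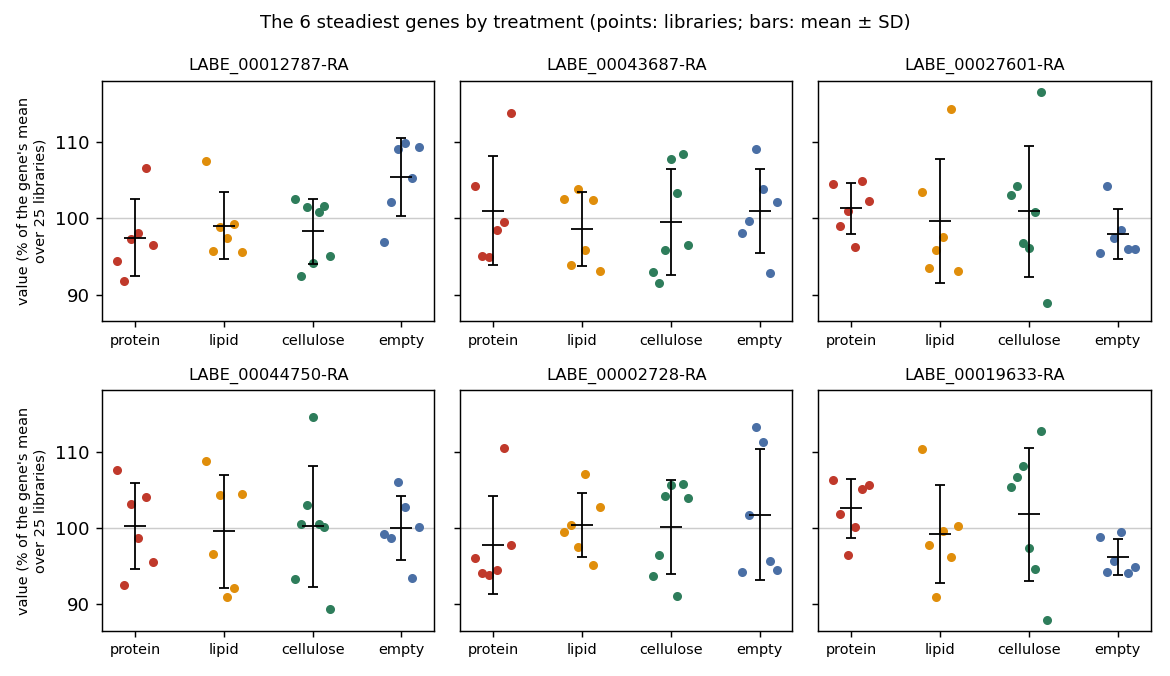
Values of the 6 steadiest genes as a percentage of each gene's mean over 25 libraries (points), by treatment, with the mean and SD of each group (6 protein, 6 lipid, 7 cellulose and 6 empty libraries). All points lie within 20% of the mean, and the groups overlap in each gene.

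The member with the highest level was LABE_00012856-RA, with a mean of 4633. It had a lowest, median and highest value of 3934, 4476 and 4957 with protein, 4138, 4829 and 5274 with lipid, 3952, 4532 and 4773 with cellulose, and 4428, 4671 and 5973 in empty intestines. Empty library 24 was above all others. The member with the lowest level, LABE_00011489-RA, had a mean of 205. Its lowest, median and highest values were 191, 211 and 237 with protein, 185, 203 and 229.6 with lipid, 181, 198 and 218 with cellulose, and 159, 209 and 235 in empty intestines, where empty library 26 had the lowest of the 25 values.

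Differences between the treatments were small in every member, as they had to be, because a difference between groups adds to the SD by which the genes were chosen. The means of the 4 groups spanned a median of 0.0958 on the log2 scale in the members (0.0113 to 0.2), and a median of 0.277 in the other eligible genes. The share of the variance that lay between groups does not depend on the size of the spread. It had a median of 10.5% in the members and of 11.8% in the other eligible genes. With 4 groups and 25 libraries, shares of this size also arise where treatments do not differ. The share is thus no measure of a treatment effect, in these medians or in single genes. With limma, the median size of the log2 difference over the members was 0.0518 for protein versus cellulose, 0.0495 for lipid versus cellulose and 0.0392 for cellulose versus empty. Over the other genes tested it was 0.198, 0.168 and 0.159. For protein versus lipid it was 0.0403 in the members and 0.134 in the other genes tested, for protein versus empty 0.0548 and 0.198, and for lipid versus empty 0.0413 and 0.157. The largest difference in any member and comparison was 0.2.

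Among these small differences more were below 0 than above it. With the deposited values, 70 members had a higher and 130 a lower mean log2 level with protein than in empty intestines, and the median difference was -0.03, where that of all genes tested was 0.02. The split was 78 higher and 122 lower for protein versus cellulose, 83 and 117 for lipid versus cellulose, 91 and 109 for protein versus lipid, 80 and 120 for lipid versus empty, and 90 and 110 for cellulose versus empty. Comparisons with a group in common share its libraries, so these splits are not separate observations. Another scaling moves all genes of a library by the same factor, and with differences this small the split moves with it by construction, so it is no property of the members. After scaling to the library total, protein versus empty had 39 higher and 161 lower, protein versus lipid 31 and 169, protein versus cellulose 58 and 142, cellulose versus empty 65 and 135, lipid versus cellulose 122 and 78, and lipid versus empty 103 and 97. The first 4 of these kept their direction, and the last 2 turned round. In edgeR, which used its own scaling and also lacked lipid library 21 and empty library 19, lipid versus empty had 110 higher and 90 lower. Scaling by the members themselves centres them, and the splits then lay between 96 and 109 higher of 200.

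**Figure D3:**
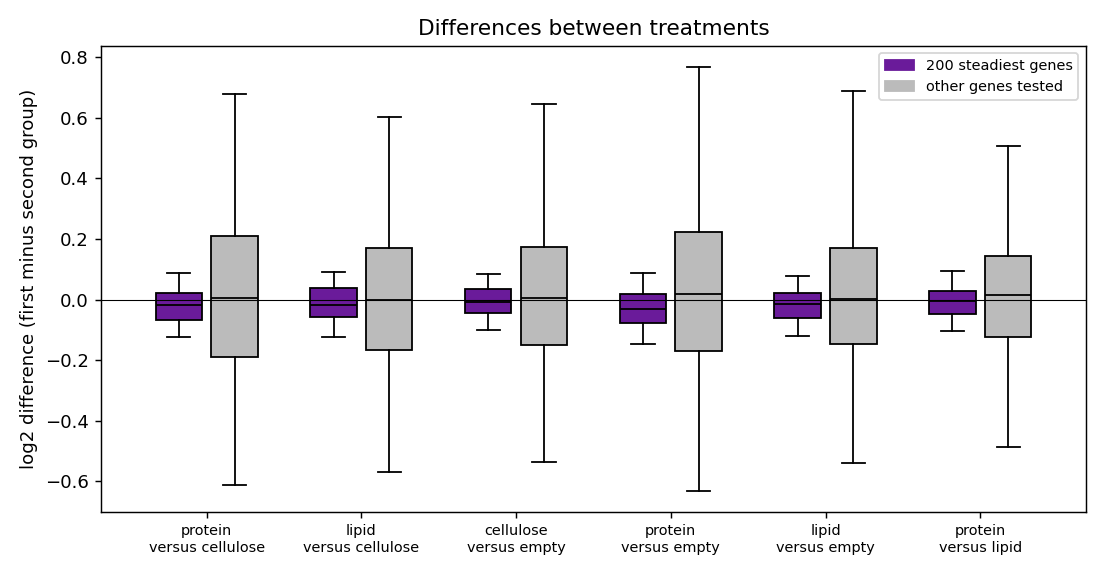
Log2 differences between treatments (first minus second group, limma on log2(value + 1)) for the 200 steadiest genes (purple, left of each pair) and the other 18833 genes tested (grey, right). Boxes show the quartiles and the median, and whiskers the 5th and 95th percentiles. The boxes of the members are narrower in each of the 6 comparisons, as the choice of genes implies, and their medians lie between -0.03 and -0.01.

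No member had an unadjusted p under 0.01 in the four-group comparison, where 1.6% of the 19033 genes tested did, and 1 member was under 0.05, against 7.28% of all genes tested (limma with 4 groups in 1 fit). The number of members under 0.01 was also 0 for protein versus cellulose (2.72% of all genes tested), protein versus empty (2.77%), protein versus lipid (0.447%), lipid versus cellulose (1.09%), lipid versus empty (0.788%) and cellulose versus empty (0.919%). Under 0.05 there were 6 members for protein versus cellulose (10.2% of all genes tested), 5 for protein versus empty (9.81%), 1 for protein versus lipid (2.47%), 2 for lipid versus cellulose (5.91%), 1 for lipid versus empty (4.74%) and 1 for cellulose versus empty (5.18%). After Benjamini-Hochberg adjustment limma gave 0 members under 0.05 in each comparison, against 0.0158% of all genes tested (3 genes) for protein versus empty and 0 genes in the others. As a second tool, edgeR on the recovered reads of 23 libraries gave 0 members under 0.01 in each comparison. Over all genes its shares were 1.7% for the four-group comparison, 3.63% for protein versus cellulose, 2.46% for protein versus empty, 0.699% for protein versus lipid, 0.657% for lipid versus cellulose, 0.63% for lipid versus empty and 0.935% for cellulose versus empty. Nothing is read from these counts, since the total SD chose the members and since limma and edgeR draw the variance of each gene towards that of genes of a similar level, which raises it for genes chosen for a low one. When each gene's own variance was used, 2 members were under 0.01 in the four-group comparison (1.58% of all genes tested), 4 for protein versus cellulose (2.53%), 4 for protein versus empty (2.62%), 1 for protein versus lipid (0.431%), 1 for lipid versus cellulose (1.06%), 1 for lipid versus empty (0.835%) and 0 for cellulose versus empty (0.967%). The members' counts were thus near the share over all genes.

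For use as references the width of the interval matters as well as the difference. In 94 of the 200 members the 95% interval of the difference (limma) lay within 1.2-fold in all 6 comparisons, as it did in 0.872% of the genes tested (166 of 19033). In single comparisons the number of members was 164 for protein versus cellulose (4.05% of all genes tested), 148 for protein versus empty (3.19%), 174 for protein versus lipid (4.39%), 171 for lipid versus cellulose (4.57%), 167 for lipid versus empty (3.96%) and 178 for cellulose versus empty (4.68%). The choice of members by a low spread in these same libraries narrows these intervals and keeps the differences small. The moderation of the variance in limma widens the intervals. The higher share among the members is thus largely built in and gives no support for them as references. The width of the intervals in new libraries was not tested.

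Groups without overlap were about as rare among the members as among all genes, and nothing is read from them. In LABE_00019667-RA, a member with a mean of 517 and rank 128, the 6 protein libraries had values of 527 to 595 (median 545) and the 7 cellulose libraries 432 to 523 (median 491). The groups did not overlap, and the log2 difference was 0.17 (standard error 0.08). Lipid libraries had 463 to 545 (median 532) and empty libraries 434 to 576 (median 536). This was the only member whose protein and cellulose libraries did not overlap, as against 0.525% of all genes tested. LABE_00040766-RA, with a mean of 1602 and rank 60, was the only member without overlap between protein and empty, against 0.431% of all genes tested. It had 1337 to 1558 (median 1495) with protein, 1470.1 to 1759 (median 1598) with lipid, 1551 to 1868 (median 1645) with cellulose and 1613 to 1785 (median 1652) in empty intestines. The log2 difference of protein from empty intestines was -0.19 (standard error 0.07), and groups accounted for 45.4% of its variance, the most of any member. Both genes were picked after their values had been seen. No member had groups without overlap in the other 4 comparisons, where the share over all genes tested was 0.121% for protein versus lipid, 0.163% for lipid versus cellulose, 0.142% for lipid versus empty and 0.0893% for cellulose versus empty.

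The members with the widest range of group means were LABE_00030589-RA and LABE_00013195-RA. LABE_00030589-RA had values of 464 to 515 (median 494) with protein, 504 to 553 (median 542) with lipid, 481 to 553 (median 508) with cellulose and 477 to 674 (median 545) in empty intestines. Its 2 highest values, 674 and 672, were those of empty libraries 30 and 19, which also lacked reads for the most genes, and the part of these libraries in the difference was not tested. LABE_00013195-RA had 700.2 to 844 (median 751) with protein, 789 to 987 (median 863) with lipid, 822 to 951 (median 896) with cellulose and 786 to 960.5 (median 862) in empty intestines. The protein libraries lay at the lower end, with a log2 difference of -0.19 (standard error 0.08) from each of the other groups.

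Averaged over the 200 members, each library deviated little from the rest, as the choice of genes by a low SD in these values implies. The mean deviation, called the offset here, ranged from -4.21% in protein library 22 to 4.2% in empty library 24, and its SD over the 25 libraries was 0.0284 on the log2 scale. It was -0.977% ± 2.40 (SD, n = 6) with protein, -0.440% ± 1.60 (SD, n = 6) with lipid, 0.439% ± 1.30 (SD, n = 7) with cellulose and 0.982% ± 2.31 (SD, n = 6) in empty intestines. The widest difference between group means, that of protein and empty, was smaller than the SD of either group. Protein libraries 10, 11, 20 and 22 had negative offsets, and protein libraries 32 and 33 positive ones. Offsets of single libraries did not order by treatment, since lipid library 21 (-3.22%) and empty library 26 (-2.65%) lay as low as the lower protein libraries. The offsets also depend on the scaling. With scaling to the library total they ran from -0.263 in protein library 20 to 0.143 in empty library 19 on the log2 scale.

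**Figure D4:**
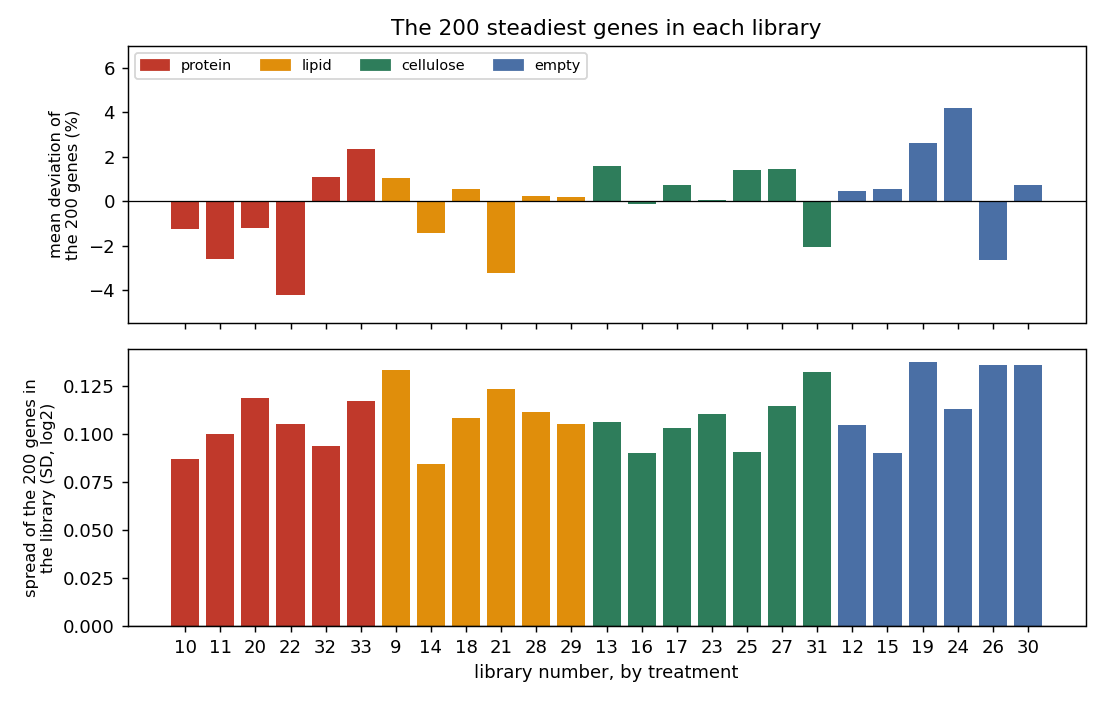
The 200 steadiest genes in each of the 25 libraries, grouped by treatment. The upper bars give the mean deviation of the genes from their own means in percent, from -4.21% to 4.2%, and the lower bars give the SD of these deviations among the genes on the log2 scale, from 0.0843 to 0.138.

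Spread around the offset was not shared evenly between the libraries. The SD of the 200 deviations within a library was lowest in lipid library 14 (0.0843) and protein library 10 (0.0869). The highest values were those of empty libraries 19 (0.138), 30 (0.136) and 26 (0.136), lipid library 9 (0.134) and cellulose library 31 (0.133). Over groups it averaged 0.104 ± 0.0127 (SD, n = 6) with protein, 0.111 ± 0.0168 (SD, n = 6) with lipid, 0.107 ± 0.0147 (SD, n = 7) with cellulose and 0.12 ± 0.0199 (SD, n = 6) in empty intestines. Each member has 1 highest and 1 lowest library, so that 400 such positions fall on 25 libraries, 16 on average. Cellulose library 31, the shallowest of all, held 30 of them, empty library 19 held 27, and lipid library 21 and empty library 26 held 26 each. Cellulose library 16, the next shallowest with 10413012 reads, held 8. Protein library 10 held 3. In the eligible genes that are no members, the SD within a library was highest in protein library 33 (0.664), empty library 19 (0.624) and lipid library 21 (0.608).

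Pairs of members were only weakly correlated on average. Over the 19900 pairs of members the correlation across the 25 libraries had a mean of 0.0561 and ran from -0.74 to 0.82, and 59.1% of the pairs were above 0. In the other eligible genes the mean was 0.00058. All pairs share the 25 libraries and their size factors. The first principal component of the standardized log2 values took 13.9% of the variance in the members and 15.6% in the other eligible genes. Averaged over all 200, the members were steadier than any single member. A weak positive correlation over many pairs still adds to the spread of the average, whose SD over the 25 libraries was 0.0284.

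A measure often used for reference genes is the SD of the log2 ratio of 2 genes over the libraries, which does not depend on the size factors. Averaged over the other members it ranged from 0.131 for LABE_00012787-RA, which also had the lowest SD, to 0.18, with a median of 0.16. Of the 100 members with the lowest SD, 84 were also among the 100 with the lowest average for this ratio. Both measures come from the same values, and pairs were weakly correlated, so the average largely follows the gene's own SD. This overlap is thus largely built in and gives no separate support for the ranking. The pair with the least variable ratio was LABE_00036682-RA and LABE_00030013-RA, ranked 33 and 158 by their SD, and was picked after the values had been seen. Their log2 ratio had an SD of 0.072, less than the SD of either gene (0.107 and 0.126), and their correlation was 0.82. Values of LABE_00036682-RA were 1721 to 2192 (median 1948) with protein, 1867 to 2171 (median 2001) with lipid, 1723 to 2045 (median 1981) with cellulose and 1775 to 2285 (median 2037) in empty intestines. LABE_00030013-RA had 432 to 551 (median 497) with protein, 458 to 569 (median 505) with lipid, 437 to 523 (median 491) with cellulose and 419 to 582 (median 499) in empty intestines. Both genes of the pair thus varied together, which lowers the SD of their ratio without lowering the SD of either gene.

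Fewer members gave a less steady average. The SD of the average log2 value over the 25 libraries was 0.0775 for the steadiest member, 0.0586 for the 3 steadiest, 0.0519 for 5, 0.0414 for 10, 0.0314 for 50 and 0.0284 for all 200. The largest difference from the offset of all 200 in 1 library was 0.12 on the log2 scale with 1 gene (empty library 30). It was 0.10 with 3 genes and 0.07 with 5 genes, both in cellulose library 27. With 10 genes it was 0.06 (empty library 19), and with 50 genes 0.02 (lipid library 18). Each set is a part of the 200, so this difference shrinks by construction as the set grows and is no measure of error. The genes were also ranked by their SD in these same libraries. When all 25 libraries were rescaled by the offset of the 200 members, limma's count of all genes at an unadjusted p under 0.01 changed little. It was 509 for protein versus cellulose against 517 without rescaling, 497 against 528 for protein versus empty, and 173 against 175 for cellulose versus empty. In the remaining comparisons it also changed little. The members were chosen for a low SD in these same values, so their offsets are small by construction and could barely move the counts. The small change is thus built in and gives no support for the members as references.

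To measure the spread in libraries that had played no part in the choice, the same rule was applied to 3 of the groups, and the 200 genes found were then followed in the group left out. Without the protein libraries, 143 of the 200 genes chosen were members. In the 6 protein libraries these 200 genes had a median SD of 0.129, against 0.299 for the eligible genes. Without the lipid libraries 153 were members, and the median SD in the 6 lipid libraries was 0.135 against 0.302. The genes chosen without cellulose included 140 members and had a median SD of 0.126 in the 7 cellulose libraries, against 0.268. Those chosen without the empty libraries included 141 members and had 0.151 against 0.331. In the libraries that chose them the medians had been 0.114, 0.114, 0.116 and 0.111, in the same order, so the genes were less steady in the group left out than in the libraries by which they were chosen. Even so, 123, 116, 119 and 113 of the 200 were in the lowest 10% of the eligible genes there, and 1, 4, 1 and 5 were above the median. The eligible genes were not matched to the chosen genes for level, so level and steadiness are not separated in these comparisons. Over the 25 libraries the median SD of eligible genes was 0.448 at means of 50 to 100 and 0.254 at 800 to 1600. The group left out also came from the same set of normalized values as the others.

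The level of the chosen genes in the group left out was also close to that in the other groups. Their mean log2 value differed by a median of 0.0527 for protein, 0.037 for lipid, 0.0427 for cellulose and 0.0437 for empty intestines, against 0.125, 0.0879, 0.118 and 0.108 in the eligible genes. Group means of genes with a lower spread differ less even where treatments have no effect. The smaller difference thus adds nothing on treatments beyond the lower SD, and the eligible genes were again not matched for level. Only a minority of the genes chosen were the steadiest in the group left out itself, with 29, 30, 25 and 26 of 200 among its own 200 lowest. Over the 4 choices, 414 genes were taken at least once and 87 every time, and all 87 were members. Each choice used 18 or 19 of the 25 libraries that also chose the members. Overlap with the members is thus largely built in and gives no separate support for them. An average of genes chosen in this way had an SD of 0.0715 to 0.145 in the group left out when it rested on 1 gene, 0.0573 to 0.0729 with 10 genes and 0.019 to 0.0477 with 200. More genes did not lower it at every step. In the empty libraries it was 0.0715 with 1 gene, 0.0884 with 3 and 0.0849 with 5, in the cellulose libraries 0.053 with 5 and 0.0619 with 10, and in the protein libraries 0.0712 with 3 and 0.0729 with 10.

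**Figure D5:**
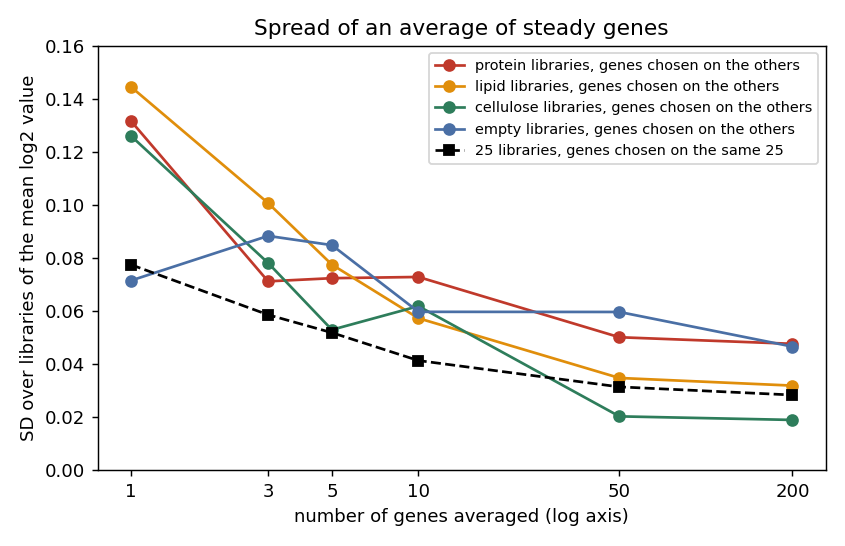
SD over libraries of the mean log2 value of the 1, 3, 5, 10, 50 and 200 steadiest genes (log axis). Coloured lines give the libraries of 1 treatment with genes chosen on the other 3 groups (n = 6 protein, 6 lipid, 7 cellulose and 6 empty), and the dashed line all 25 libraries with genes chosen on the same 25. With 200 genes the SD was 0.019 to 0.0477 in the groups left out and 0.0284 over the 25.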

How the data were processed

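RNA of 25 intestines was sequenced, 1 library each. Trim Galore 0.4.2, HISAT2 and featureCounts were the authors' tools for trimming, mapping and counting, and DESeq2 for normalization. The deposited values are a normalized signal, each count divided by a size factor for its library. Their identifiers belong to another annotation than the one the paper names. Within 0.01 reads, 100% of the values of each library were whole multiples of the value of 1 read, and reads recovered in this way were used in edgeR 4.0.16 for 23 libraries. Empty library 19 and lipid library 21, where a read was worth 0.991 and 1.009, were left out of the count test. Their reads could be recovered like those of the others, and were used for depth and counting SDs. Counting SDs were computed from the mean value of a gene and the value of 1 read, and cover counting error only. None of the 66 pairs of libraries within a group were copies of each other (chi-square per degree of freedom at least 24.1).

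Groups follow the treatment in the labels. Groups were compared with limma 3.58.1 (R 4.3.3, trend and robust options) on log2(value + 1) with 4 groups in 1 fit. It covered the 19033 genes whose value exceeded 10 in 5 or more libraries, with Benjamini-Hochberg adjustment over all of them. In the four-group comparison 0 genes had an adjusted p under 0.05 with limma (1385 an unadjusted p under 0.05), and edgeR gave 323 genes with an unadjusted p under 0.01, where limma gave 305. The tests were checked on simulated data with planted changes larger than any difference in a member, so differences this small were not covered. The members and lists were chosen with earlier results of these data known. Genes were named by rank: the 6 lowest SDs, the 2 on either side of the threshold, the highest and lowest mean and the 2 widest ranges of group means. Lists of reference genes and markers were not used, as the identifiers carry no names.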

Additional observations from a re-analysis of the deposited data

Results flagged for a closer look

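In 8 of 92 sets of values, 1 library was separated from its group by a wide gap. Chance gives about 1 in 20. The sets were 5 measures per library and the values of 18 genes, each in 4 groups.

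Protein library 20 had the members at 1.30% of its summed values, against 1.53% in the next protein library. The 100 most abundant genes took 32.8% of this library, the highest share of the 25. Protein library 33 held 488930 reads on the members, against 254729 in the next protein library, and was the deepest library. Empty library 26 held 169426 reads on the members, against 227051 in the next, and was the shallowest of the empty libraries.

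Among single genes, LABE_00012787-RA, the steadiest member, had 1069.6 in lipid library 9, against 988 in the next lipid library. LABE_00027601-RA had 546 in empty library 15, against 515 in the next empty library. LABE_00002728-RA had 955 in protein library 32, against 845 in the next protein library. LABE_00051462-RA, the first gene beyond the threshold, had 349 in cellulose library 16, against 301 in the next cellulose library. LABE_00012856-RA, the member with the highest mean, had 5973 in empty library 24, against 4997 in the next empty library. Each of these 5 genes thus differed in another library.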

How the results depend on the processing

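Membership was checked under 11 other choices and by leaving out libraries or groups. Scaling to the library total, each gene's own variance, limma on the 23 libraries of edgeR, single omissions for the offset, the omission of 3 libraries and the other scalings of the held-out values were chosen after seeing the data. Of the 200 members, 88 remained when steadiness was measured by the median absolute deviation and 118 with scaling to the library total. The other choices kept 151 to 200, such as 184 with TMM or upper quartile scaling, 160 with the SD within groups and 151 without the counting variance, which brought in 49 genes with a median mean of 204. All 200 stayed with a least mean of 20 or of 200. With 200 they had to, since the lowest mean of a member was 205. Without 1 library, 170 to 191 members remained, the fewest without empty library 19, and 153 remained in all 25 such choices. Leaving out cellulose library 27 and empty libraries 19 and 30 together kept 147.

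The offset of the members had a range of 0.121 on the log2 scale, and 0.0993 (without empty library 24) to 0.121 without 1 library. It was 0.406 with scaling to the library total, where protein library 20 lay lowest, and 0.260, 0.219, 0.178 and 0.175 with the 1, 3, 5 and 10 steadiest members. With each gene's own variance the members with an unadjusted p under 0.01 were 2 in the four-group comparison (1.58% of all genes tested), 4 for protein versus cellulose (2.53%), 4 for protein versus empty (2.62%), 1 for protein versus lipid (0.431%), 1 for lipid versus cellulose (1.06%) and 1 for lipid versus empty (0.835%). Without 1 library, limma gave 0 to 1 member for protein versus cellulose (1 without protein library 32), 0 to 1 for cellulose versus empty (1 without empty library 15) and 0 to 1 for protein versus empty (1 without empty library 12 or 26), and 0 in the other comparisons. Over all genes the count under 0.01 was 208 with limma for lipid versus cellulose and 125 with edgeR on 23 libraries, where limma on the same libraries gave 113. For protein versus lipid these counts were 85, 133 and 106. The cause of these changes was not tested, apart from the moderation of the variance. No paired analysis was possible because each library has a number of its own.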
